A study of Mus musculus with 11 samples.

Results

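The genes described here are 7 members of the MHC class II antigen presentation pathway, H2-Aa, H2-Ab1, H2-Eb1, Cd74, Ciita, H2-DMa and H2-DMb1, taken by symbol from a table of 55291 gene symbols. All 7 were in the table, and all 7 passed the filter on low counts that left 17183 genes for testing. RNA was sequenced from LSK cells, the lineage-negative, c-Kit-positive, Sca-1-positive cells of bone marrow, among which are the stem cells of blood and the earliest progenitors. There were 4 mice labelled Phf6 R274X Tg (Tg), 3 Phf6 knockout mice (KO) and 4 wild-type mice (WT), all given as C57BL/6. Phf6 lies on the X chromosome, encodes a chromatin-associated protein and is mutated in human leukaemias. R274X replaces an arginine codon by a stop codon. The sources used here give no age, sex, batch, transgene promoter or route to the knockout.

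MHC class II molecules carry peptides from engulfed or self-digested proteins to the cell surface, where CD4 T cells read them. Each molecule pairs an alpha with a beta chain around the peptide groove, and the invariant chain Cd74 fills that groove until cathepsins trim it and H2-DM exchanges the last fragment for a peptide. Dendritic cells, B cells and macrophages are the main carriers, and class II has also been described on some haematopoietic progenitors. Ciita, a coactivator that binds no DNA itself, switches the genes on through the proteins RFX, CREB and NF-Y, which sit on the X and Y boxes of class II promoters.

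The promoters are shown as background, after the members were seen to vary together to very unequal degrees. Whether their letters bear on that was not tested. RefSeq windows on GRCm38.p6, running from 250 bases before to 50 bases after a gene's start, were in the table used here for 4 of the 7 members and for 4 further class II genes. Each is given 5′ to 3′ on the strand of its gene, and capitals mark the letters CTNGNAAC, a core of the X box, and GATTGG, a core of the Y box, where the second starts 10 to 50 bases after the start of the first. These letters were chosen after the windows had been read, and both strands were searched. H2-Aa is read from chr17:34287774-34288073 (minus strand), H2-Eb1 from chr17:34305617-34305916 (plus), H2-DMb1 from chr17:34152941-34153240 (plus), H2-DMa from chr17:34122582-34122881 (plus) and H2-Ob, a modulator of H2-DM, from chr17:34238655-34238954 (plus).
H2-Aa: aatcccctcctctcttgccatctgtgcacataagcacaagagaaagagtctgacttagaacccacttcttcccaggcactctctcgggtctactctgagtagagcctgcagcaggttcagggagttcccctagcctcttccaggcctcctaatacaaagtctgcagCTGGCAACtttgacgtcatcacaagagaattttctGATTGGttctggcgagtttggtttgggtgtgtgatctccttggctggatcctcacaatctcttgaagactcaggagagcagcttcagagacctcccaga
H2-Eb1: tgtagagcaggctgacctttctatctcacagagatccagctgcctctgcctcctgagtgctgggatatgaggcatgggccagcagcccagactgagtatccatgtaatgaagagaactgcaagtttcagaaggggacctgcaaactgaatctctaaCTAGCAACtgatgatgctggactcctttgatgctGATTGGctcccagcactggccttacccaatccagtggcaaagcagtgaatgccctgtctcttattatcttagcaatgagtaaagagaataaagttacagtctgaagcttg
H2-DMb1: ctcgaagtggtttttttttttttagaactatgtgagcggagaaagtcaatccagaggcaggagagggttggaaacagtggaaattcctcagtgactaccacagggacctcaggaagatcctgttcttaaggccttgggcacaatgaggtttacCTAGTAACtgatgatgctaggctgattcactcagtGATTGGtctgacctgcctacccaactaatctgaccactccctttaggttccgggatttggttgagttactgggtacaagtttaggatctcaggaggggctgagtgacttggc
H2-Ob: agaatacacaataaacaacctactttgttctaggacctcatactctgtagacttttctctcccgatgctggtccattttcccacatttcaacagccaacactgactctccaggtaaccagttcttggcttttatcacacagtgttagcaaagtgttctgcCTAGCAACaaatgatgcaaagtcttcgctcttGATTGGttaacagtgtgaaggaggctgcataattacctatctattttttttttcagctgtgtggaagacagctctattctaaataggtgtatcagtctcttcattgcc
H2-DMa: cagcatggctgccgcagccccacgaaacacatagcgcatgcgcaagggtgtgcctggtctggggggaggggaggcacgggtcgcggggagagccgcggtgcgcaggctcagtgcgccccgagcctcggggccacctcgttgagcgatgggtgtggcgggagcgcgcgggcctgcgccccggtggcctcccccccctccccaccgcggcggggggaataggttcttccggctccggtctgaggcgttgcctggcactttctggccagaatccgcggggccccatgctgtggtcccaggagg
The pair of boxes was found in H2-Aa, where the letters were CTGGCAAC and the first base of the Y letters lay 35 bases after the first base of the X letters. Counted in the same way, it was found in H2-Eb1 (CTAGCAAC, 34 bases), H2-DMb1 (CTAGTAAC, 35 bases) and H2-Ob (CTAGCAAC, 32 bases). The X letters began 84, 94, 97 and 90 bases before the start of H2-Aa, H2-Eb1, H2-DMb1 and H2-Ob. Over all 32851 promoter windows of the table, 13.2% held the X letters, 16.1% held the Y letters and 0.161% held the pair in this order and spacing. Neither of the 2 windows of H2-DMa held the pair, nor did those of H2-DMb2, H2-Oa and H2-Eb2. In H2-Oa and H2-Eb2 the letters CCAGCAAC stood before GATTGG, and in H2-DMb2 CTATTAAC did, close to the X letters but outside them. Near matches were not searched, so the pair is absent from these windows only as exact letters. A match describes letters and does not show that a factor bound there. The 2 windows of H2-DMa began at 34122582 and 34125268, while the gene is annotated from 34119541 to 34139101. Any other start of H2-DMa was not searched, so these windows do not show that the gene lacks the pair. Which start of H2-DMa was used in these cells was not tested.

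Libraries held 20990446 to 45632018 counts, and a gene without a count could have had up to 3 counts, or 0.0657 to 0.143 CPM, where CPM is a count scaled to a common library total. This bound covers counting error only. Phf6 averaged 220.1 ± 46.1 CPM in Tg (SD, n = 4), 19.4 ± 4.33 CPM in KO (n = 3) and 121.2 ± 14.2 CPM in WT (n = 4). Xist, the RNA of the inactive X chromosome, lay at 0.0307 to 0.297 CPM in Tg, 32.7 to 40.3 CPM in KO and 50.02 to 53.8 CPM in WT, so that in either contrast with Tg the genotype and this difference cannot be told apart. In 4 libraries (KO 1, WT 1, WT 2 and WT 4) reads of Xist stood beside reads of Y-linked genes (20.96 to 141 CPM), although the labels give each library as a single mouse. Results are also given without these 4 mixed-signal libraries, a choice made after the values were seen. Genes of the LSK fraction were present in every library: 6 markers that include Kit and Ly6a summed to 1620 to 2221 CPM in Tg, 1924 to 2170 CPM in KO and 1713 to 2436 CPM in WT.

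Class II RNA differed widely among mice of the same genotype, most of all among WT mice. Summed over the 7 genes, the level was 194.3, 228.6, 192.5 and 372 CPM in the Tg libraries 1 to 4, 429.5, 1135 and 721.6 CPM in the KO libraries 1 to 3, and 260.5, 1435, 164.5 and 620.2 CPM in the WT libraries 1 to 4. Both the highest and the lowest library were WT, and they stood 8.72-fold apart. The highest library was 1.93-fold above the lowest in Tg and 2.64-fold in KO. All 4 Tg libraries lay below all 3 KO libraries, and inside the WT range. In bulk RNA, fewer cells of a type and less RNA per cell cannot be told apart.

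**Figure D1:**
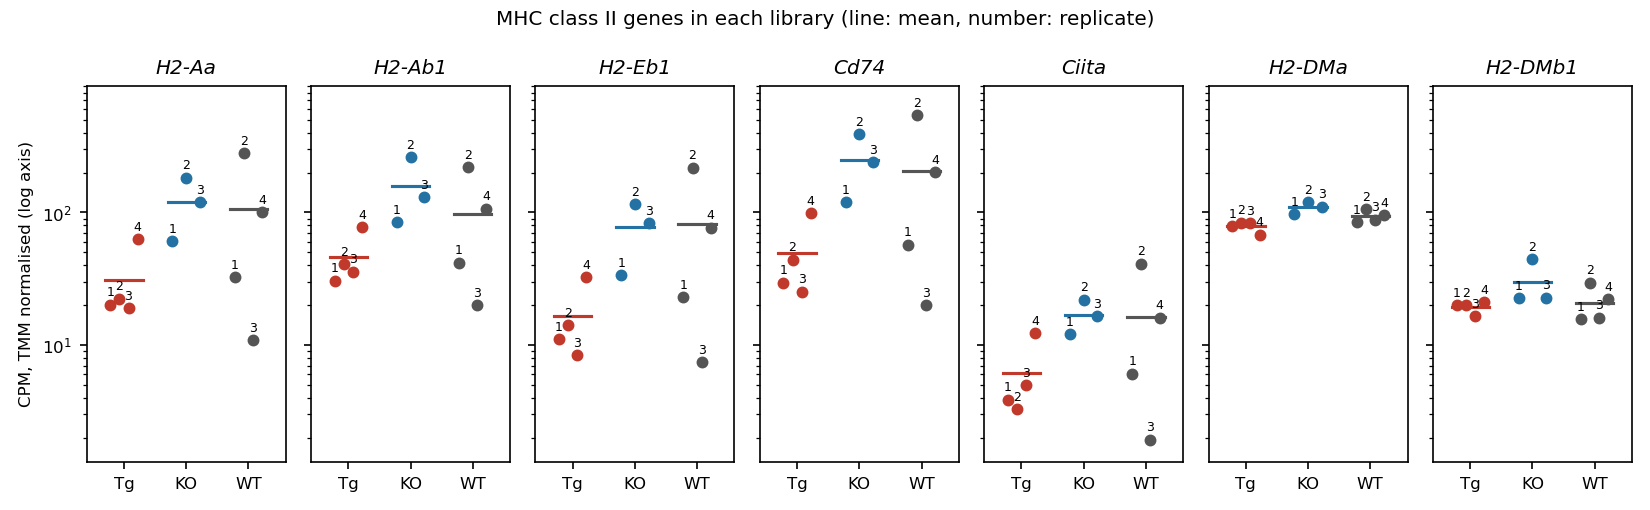
Level of each class II gene in every library (CPM, log axis), with Tg, KO and WT from left to right and replicate numbers beside the points; bars mark the group means. For H2-Aa, H2-Ab1, H2-Eb1, Cd74 and Ciita the WT points span the widest range, with WT 2 at or near the top and WT 3 at the bottom, while H2-DMa stays between 67.9 and 119 CPM throughout.

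The classical chains come first. H2-Aa (chromosome 17, 34282744 to 34287823, minus strand, GRCm38), the alpha chain of the I-A molecule, had 20.2, 22.3, 18.9 and 62.5 CPM in the Tg libraries, 60.5, 182.7 and 119.1 CPM in the KO libraries, and 32.4, 279.0, 10.9 and 101.0 CPM in the WT libraries. Tg 4 stood above the other 3 Tg libraries and just above KO 1, so Tg overlapped with both other groups. The means were 31.0 ± 21.1 CPM in Tg (SD, n = 4), 120.8 ± 61.1 CPM in KO (n = 3) and 105.8 ± 121.7 CPM in WT (n = 4). H2-Ab1 (chromosome 17, 34257689 to 34269419, plus strand), the beta chain that pairs with it, had 30.6, 40.8, 35.7 and 77.2 CPM in Tg, 84.5, 262.1 and 130.9 CPM in KO, and 41.9, 218.8, 19.98 and 107.0 CPM in WT. Every KO library lay above every Tg library, and WT 2 and WT 3 lay on either side of all 4 Tg libraries.

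H2-Eb1 (chromosome 17, 34305867 to 34316674, plus strand) encodes the beta chain of the I-E molecule. It had 11.1, 14.1, 8.34 and 32.3 CPM in Tg, 33.5, 116.0 and 83.0 CPM in KO, and 23.1, 217.9, 7.39 and 76.7 CPM in WT. KO 1 exceeded Tg 4 by little, and WT again held both extremes. H2-Ea, the alpha chain of I-E, which C57BL/6 mice are known not to express, had 1 count summed over the 11 libraries, in WT 1. The beta chain was thus counted at an average of 56.7 CPM over the 11 libraries without RNA of its usual partner.

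Cd74 (chromosome 18, 60803848 to 60812652, plus strand), the invariant chain, was the most abundant member at 95.6 CPM per kilobase of exon averaged over the 11 libraries. The next levels on this scale were 37.2 for H2-Ab1, 29.2 for H2-Eb1, 26.8 for H2-DMa, 21.8 for H2-Aa and 13.6 for H2-DMb1, and Ciita stood at 1.34. Cd74 had 29.5, 44.0, 25.2 and 98.6 CPM in Tg, 119.0, 388.3 and 238.8 CPM in KO, and 57.2, 543.5, 19.98 and 201.8 CPM in WT. All KO libraries lay above all Tg libraries. WT 2 held 27.2-fold as much as WT 3, the lowest of the 11.

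Ciita (chromosome 16, 10480059 to 10528418, plus strand), the coactivator, followed the chains at a lower level. It had 3.88, 3.29, 4.96 and 12.4 CPM in Tg, 12.1, 21.97 and 16.6 CPM in KO, and 6.07, 41.0, 1.94 and 16.1 CPM in WT. Tg 4 lay just above KO 1, and the same WT libraries as for Cd74 were highest and lowest. The exons of Ciita overlap those of Dexi on the opposite strand by 329 bases. Whether the counting used strand is not given in the sources used here, so reads in that overlap cannot be assigned to either gene.

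The peptide exchange factor H2-DM behaved differently. H2-DMa (chromosome 17, 34119541 to 34139101, plus strand), its alpha chain, had 79.1, 84.0, 82.7 and 67.9 CPM in Tg, 97.3, 119.2 and 110.5 CPM in KO, and 84.3, 105.5, 88.3 and 95.6 CPM in WT. The Tg libraries were the 4 lowest of the 11, and the highest library stood 1.76-fold above the lowest. Tg 4, the highest Tg library for the chains, Cd74 and Ciita, was the lowest of all for H2-DMa. H2-DMb1 (chromosome 17, 34153072 to 34160230, plus strand), its beta chain, had 19.98, 20.1, 16.6 and 21.1 CPM in Tg, 22.6, 44.6 and 22.7 CPM in KO, and 15.6, 29.5, 16.1 and 22.1 CPM in WT. KO 2 stood well above the rest. H2-DMb1 and H2-DMb2 are close copies, so the split of reads between them is uncertain, and exons of H2-DMa overlap Brd2 on the opposite strand by 360 bases.

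In order of group means, KO was highest, WT next and Tg lowest for 6 of the 7 genes, and for H2-Eb1 WT (81.3 ± 95.8 CPM) stood above KO (77.5 ± 41.5 CPM). KO and WT overlapped for every member. Tg and WT overlapped for every member but H2-DMa.

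The first contrast asked whether loss of Phf6 changes class II expression. Calls were made by edgeR's quasi-likelihood test, at a Benjamini-Hochberg adjusted p under 0.05 over all 17183 genes. None of the 7 genes was called in KO against WT, where 0.0233% of genes were called in either direction. None had an unadjusted p under 0.05 (7.09% of all genes), none was without overlap (7.5%), and DESeq2 called none either. The log2 fold changes ran from -0.07 for H2-Eb1 (SE 0.87, adjusted p = 0.994) to 0.72 for H2-Ab1 (SE 0.66, adjusted p = 0.857), with a median of 0.22 against -0.0053 over all genes. For Cd74 the change was 0.27 with a 95% interval of -1.63 to 2.18, which leaves room for a difference of either sign. H2-DMa was measured most closely, at 0.22 (SE 0.10, adjusted p = 0.709). Without the mixed-signal libraries, which left KO 2 and KO 3 against WT 3 alone, the fitted differences were 3.77 for H2-Eb1 (adjusted p = 0.430), 3.82 for H2-Aa and 3.99 for Cd74, and none was called.

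The second contrast compared the R274X mice with WT. All 7 genes had lower fitted levels in Tg, with a median log2 fold change of -1.41 against 0.0052 over all genes, but none was called by edgeR, DESeq2 or limma-voom, where in edgeR 2.39% of genes were called lower, 2.54% higher and 4.92% in either direction. The largest difference was that of H2-Eb1, -2.31 (SE 0.86, 95% interval -4.18 to -0.43, edgeR quasi-likelihood adjusted p = 0.142). Cd74 differed by -2.06 (SE 0.84, adjusted p = 0.180), H2-Aa by -1.77 (SE 0.81, adjusted p = 0.225), Ciita by -1.41 (SE 0.74, adjusted p = 0.294) and H2-Ab1 by -1.07 (SE 0.63, adjusted p = 0.351). At an unadjusted p under 0.05 stood 4 of the 7, all lower in Tg, against 11.1% of all genes lower. H2-DMa was the 1 member of 7 without overlap, all Tg libraries lying below all WT libraries, as for 5.34% of all genes. Its difference was small, -0.25 (SE 0.10, adjusted p = 0.153), and H2-DMb1 differed by -0.10 (SE 0.25, adjusted p = 0.860).

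Leaving out any 1 library kept the lower fitted level in Tg for every member but H2-DMb1, though the size rested heavily on WT 2. Without WT 2 the log2 fold changes were -1.11 for H2-Eb1 (edgeR quasi-likelihood adjusted p = 0.447), -0.90 for Cd74, -0.62 for H2-Aa, -0.37 for Ciita, -0.28 for H2-Ab1 and 0.12 for H2-DMb1. Without WT 3 that of H2-Eb1 was -2.69 (adjusted p = 0.0506), and without Tg 4 it was -2.86 (adjusted p = 0.111). The sign turned in a pair of other fits. Without the mixed-signal libraries, WT 3 was the only WT library left, and the log2 fold changes in Tg against it were 1.52 for H2-Aa (adjusted p = 0.517), 1.21 for H2-Ab1, 1.16 for H2-Eb1, 1.31 for Cd74, 1.67 for Ciita and 0.28 for H2-DMb1. That fit takes the spread of the lone WT library from the other groups. H2-DMa kept its sign at -0.17 (adjusted p = 0.713). With a surrogate variable in the fit of all libraries the same 6 genes also turned positive, at 0.30 for H2-Eb1 to 0.86 for Ciita, uncalled. The Tg libraries held 49.9 to 367 CPM of Y-linked reads and almost no Xist, whereas WT 3 held 52.8 CPM of Xist and 0.0642 CPM of Y-linked reads.

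The third contrast set Tg against KO and gave the clearest separation. H2-DMa fell by 0.47 on the log2 scale (SE 0.10, 95% interval -0.70 to -0.25, edgeR quasi-likelihood adjusted p = 0.0255), averaging 78.4 ± 7.33 CPM in Tg (SD, n = 4) and 109.0 ± 11.01 CPM in KO (n = 3). It was the 1 member called of 7, where 3.06% of genes were called lower, 2.63% higher and 5.69% in either direction. The call was lost without Tg 1 (adjusted p = 0.0647), without KO 2 (adjusted p = 0.123), without KO 3 (adjusted p = 0.0833), with the replicate number as a block (adjusted p = 0.0589) and with a surrogate variable (adjusted p = 0.0902). For 5 of the 7, all Tg libraries lay below all KO libraries, as for 11% of all genes, and 6 of the 7 had an unadjusted p under 0.05 with a lower level in Tg, as for 10.9% of all genes.

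The other members differed by more in Tg against KO but with wider errors. Cd74 differed by -2.33 (SE 0.89, adjusted p = 0.150), H2-Eb1 by -2.24 (SE 0.89, adjusted p = 0.168) and H2-Ab1 by -1.79 (SE 0.67, adjusted p = 0.144), all by edgeR's quasi-likelihood test. H2-Aa differed by -1.96 (SE 0.85, adjusted p = 0.207), Ciita by -1.46 (SE 0.78, adjusted p = 0.311) and H2-DMb1 by -0.62 (SE 0.27, adjusted p = 0.204). In a fit of the Tg and KO libraries alone, which does not take its spread from the WT mice, H2-Ab1 (adjusted p = 0.0410), H2-Eb1 (adjusted p = 0.0403) and Cd74 (adjusted p = 0.0363) were called lower as well. Without the mixed-signal libraries, the differences were -2.10 for H2-Ab1, -2.61 for H2-Eb1 and -2.68 for Cd74. That fit keeps WT 3 as the only WT library and leaves out KO 1, the KO library lowest in class II. With KO 1 alone left out, none of these genes was called. Their edgeR quasi-likelihood adjusted p were 0.175 for H2-Ab1, 0.202 for H2-Eb1 and 0.192 for Cd74. The 5 strongly varying genes moved together, so these calls are not independent of one another. Each pair of the 3 contrasts shares 1 group of libraries.

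**Figure D2:**
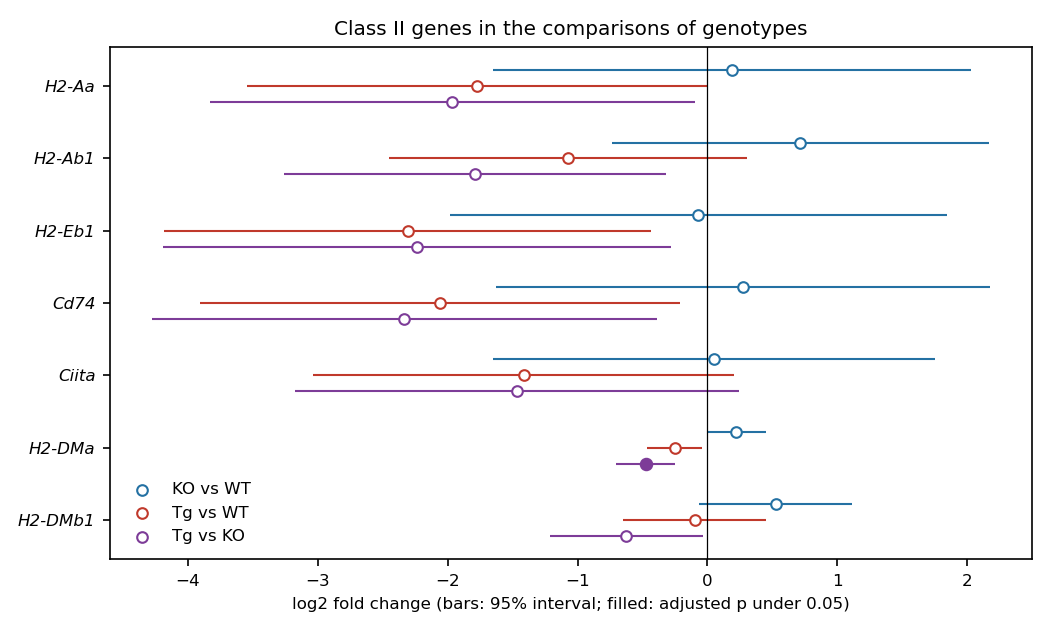
Log2 fold change of each member in the 3 contrasts with its 95% confidence interval, from a fit of all 11 libraries; filled points have an adjusted p under 0.05. H2-DMa in Tg against KO, at -0.47, is the filled point, and the intervals of the 5 strongly varying genes are several times wider than that of H2-DMa.

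The members differed strongly in their spread among mice of 1 genotype. After the genotype means were removed, the standard deviation of the log2 level was 1.47 for H2-Eb1, 1.45 for Cd74, 1.39 for H2-Aa, 1.28 for Ciita and 1.08 for H2-Ab1. The median over the 10894 genes that averaged 5 CPM or more was 0.165, and 0.964% to 1.49% of these genes varied more than the 5 did. H2-DMb1 stood at 0.397, with 7.91% of genes above it. H2-DMa stood at 0.143, close to the median gene, with 61.8% of genes above it.

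**Figure D3:**
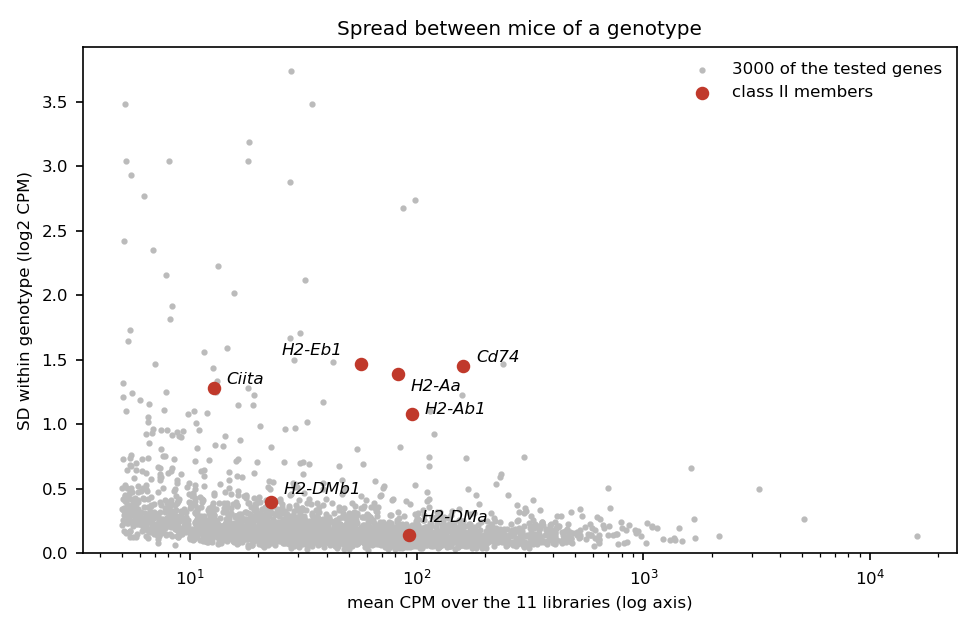
Standard deviation of the log2 level within genotypes against the mean level of genes with at least 5 CPM (CPM, log axis), with class II members named. The 5 genes from H2-Ab1 (1.08) to H2-Eb1 (1.47) lie far above the cloud, whose median is 0.165, and H2-DMa (0.143) lies inside it.

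The 5 varying genes went up and down as one across the mice. For the 10 pairs among H2-Aa, H2-Ab1, H2-Eb1, Cd74 and Ciita, Pearson's r over the 11 libraries ran from 0.958 to 0.995 and Spearman's rho from 0.955 to 1, with adjusted permutation p up to 6.3e-05 and 8.4e-05 over the 21 pairs of members. Without the 2 libraries farthest from the median, r ran from 0.933 to 0.993, and within genotypes from 0.956 to 0.997. Pairs with H2-DMa had r of 0.577 to 0.700 (adjusted permutation p up to 0.0639), and 0.321 to 0.607 within genotypes. Pairs with H2-DMb1 had r of 0.688 to 0.872 (adjusted permutation p up to 0.0206), and 0.607 to 0.830 within genotypes. The libraries share their TMM scaling, so that their values are not wholly independent of depth.

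The proportions of the chains changed far less than their levels. Cd74 stood 3.01- to 4.81-fold above H2-Aa per kilobase of exon, with a median of 4.41, while H2-Aa itself covered a 25.7-fold range. Ciita stood at 0.0479 to 0.104 of the H2-Aa level. By contrast H2-DMa per kilobase ran from 0.417 of the H2-Aa level in WT 2 to 8.97 of it in WT 3. In WT 2 there was thus less RNA per kilobase for the exchange factor's alpha chain than for the class II alpha chain, and in WT 3 several times more.

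Among 23 other genes of the pathway, 22 could be tested. None was called in KO against WT, 4 fell in Tg against WT and 3 fell in Tg against KO, and none rose in any contrast. Over all genes 0.0233% were called in KO against WT, 2.39% fell in Tg against WT and 3.06% fell in Tg against KO. Median log2 fold changes were 0.01 in KO against WT, -0.07 in Tg against WT and -0.11 in Tg against KO. The genes called act late in the pathway, in processing and exchange, apart from Nfyb, a subunit of the Y box factor NF-Y. The chains' other regulators Rfx5, Rfxap, Rfxank, Nfya, Nfyc and Creb1 were not called in any contrast.

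Lgmn, the asparagine endopeptidase of lysosomes that starts invariant chain cleavage in some cells, had 2.78, 5.21, 3.18 and 4.76 CPM in Tg, 12.8, 27.4 and 16.0 CPM in KO, and 17.1, 19.8, 11.5 and 16.6 CPM in WT. All Tg libraries lay below all others. Lgmn fell by 2.03 on the log2 scale in Tg against WT (SE 0.29, edgeR quasi-likelihood adjusted p = 0.00611) and by 2.23 in Tg against KO (adjusted p = 0.00279). Without the mixed-signal libraries the difference from WT 3 was -1.52 (adjusted p = 0.272).

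Ctss, cathepsin S, which removes most of the remaining invariant chain in dendritic and B cells, had 16.5, 17.8, 16.7 and 15.6 CPM in Tg, 39.9, 64.0 and 54.1 CPM in KO, and 30.1, 52.0, 22.5 and 44.8 CPM in WT. Tg was again below every other library, and its 4 values were close together. Ctss fell by 1.17 in Tg against WT (SE 0.23, edgeR quasi-likelihood adjusted p = 0.0210) and by 1.66 in Tg against KO (adjusted p = 0.00462). The first call was lost without Tg 1 (adjusted p = 0.0663), Tg 2 (0.0530) or WT 2 (0.0554), with a surrogate variable (-0.70, adjusted p = 0.145), and without the mixed-signal libraries (-0.43, adjusted p = 0.368).

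H2-Ob, the beta chain of H2-DO, which restrains H2-DM in B cells, had 33.6, 27.0, 43.6 and 35.2 CPM in Tg, 62.3, 71.0 and 62.3 CPM in KO, and 59.7, 90.2, 37.8 and 65.6 CPM in WT. Tg 3 lay above WT 3, and all Tg libraries lay below all KO libraries. H2-Ob fell by 0.86 in Tg against WT (SE 0.22, edgeR quasi-likelihood adjusted p = 0.0480) and by 0.90 in Tg against KO (adjusted p = 0.0469). These calls lay close to the threshold and were lost under 16 and 14 of the 21 alternative settings. Its partner H2-Oa, named after its values were seen, was not called (-0.27 in Tg against WT, adjusted p = 0.442). Nfyb, with 43.9 to 47.3 CPM in Tg, 47.6 to 49.9 CPM in KO and 52.9 to 59.6 CPM in WT, fell by 0.27 in Tg against WT (SE 0.06, edgeR quasi-likelihood adjusted p = 0.0344), a call lost under 13 of 21 settings. In KO against WT the lowest p were those of Nfyb (-0.17, adjusted p = 0.670), Ctsd and Ctsh, both cathepsins.

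Marchf1, the ubiquitin ligase that sends class II molecules to lysosomes, is named after its values were seen and varied like the chains. It had 0.300, 0.566, 0.263 and 1.48 CPM in Tg, 3.19, 4.80 and 4.83 CPM in KO, and 1.72, 10.7, 0.698 and 4.22 CPM in WT. All Tg libraries lay below all KO libraries, and Tg 4 lay above WT 3. Its difference in Tg against WT was -2.74 (SE 0.79, edgeR quasi-likelihood adjusted p = 0.0698).

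Of 13 genes that switch Ciita on or off, including those of interferon gamma signalling, 12 could be tested, and Ifng itself could not. Prdm1, a repressor of Ciita in plasma cells, was the 1 gene of these 12 called. It averaged 0.858 ± 0.463 CPM in Tg (SD, n = 4) and 4.17 ± 1.51 CPM in KO (n = 3). In Tg against KO, where 3.06% of all genes were called lower, Prdm1 fell by 2.29 (SE 0.57, edgeR quasi-likelihood adjusted p = 0.0412). That call was lost under 10 of the 21 settings. Irf8, a transcription factor of dendritic cell development, averaged 93.2 ± 25.7 CPM in Tg, 198.4 ± 21.7 CPM in KO and 122.7 ± 52.7 CPM in WT, and differed by -1.09 in Tg against KO (adjusted p = 0.0646) and by 0.69 in KO against WT (adjusted p = 0.696), where Spi1 and Prdm1 came next. In Tg against WT the lowest p were those of Irf2 (-0.33, adjusted p = 0.0962), Irf4 (-2.59, adjusted p = 0.104) and Prdm1 (-1.61, adjusted p = 0.110).

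**Figure D4:**
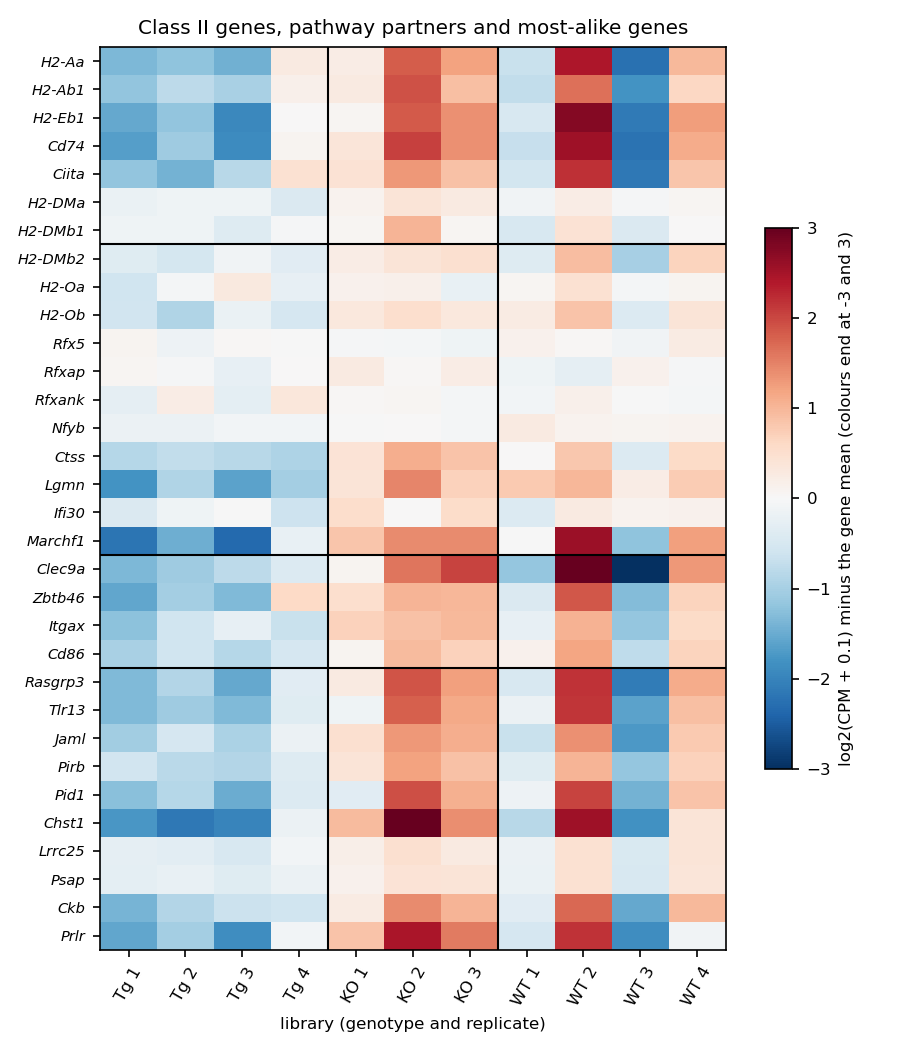
Levels of the members and of other genes in the 11 libraries, as log2(CPM + 0.1) minus each gene's mean. Colours end at -3 and 3. The other genes are class II pathway genes, the dendritic cell markers Clec9a, Zbtb46 and Itgax, and the co-stimulator Cd86. The rest were picked for a pattern like that of the members, so their likeness is by choice. The 4 Tg columns, then KO, then WT run from left to right, and KO 2 and WT 2 are the columns highest in the chains, Cd74 and Ciita while WT 3 is the lowest.

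The sum of the dendritic cell markers other than Flt3 moved with the members within genotypes, apart from the near ties Tg 1 and Tg 3. The 11 dendritic cell markers other than Flt3, itself a marker of LSK cells, summed to 15.4 to 21.48 CPM in Tg, 33.7 to 58.0 CPM in KO and 18.9 to 99.3 CPM in WT, with all 12 listed markers detected in each group. The most abundant of the 12 were Flt3, Itgax and Clec10a. Within each genotype the library highest in class II was also highest in the sum without Flt3. With Flt3 counted, the 12 markers summed to 365.4, 303.5, 336.2 and 250.2 CPM in Tg 1 to 4, with Tg 4 lowest. In WT 1 to 4 that full sum was 555.7, 437.4, 346.7 and 472.4 CPM, with WT 1 highest. The full sum followed class II in KO only, at 389.4, 653 and 484 CPM in KO 1 to 3. The dendritic cell receptor Clec9a had 0.750, 0.917, 1.15 and 1.51 CPM in Tg, 2.16, 6.42 and 8.68 CPM in KO, and 0.858, 17.0, 0.127 and 5.23 CPM in WT. Xcr1, another receptor of the same dendritic cells, had 42.1 CPM in WT 2 and was at 0 in WT 3. Clec9a and Xcr1 are named after their values were seen, and they carried much of the sum without Flt3 in WT 2. Not all listed markers moved alike. Pearson's r of the 10 tested markers with the mean of the scaled members ran from -0.234 for Clec10a to 0.936 for Clec9a. In Tg against WT, where 2.39% of all genes fell, 1 of the 10 tested dendritic cell markers fell, Ccr7 (-1.91, SE 0.47, edgeR quasi-likelihood adjusted p = 0.0419), and none was called in the other contrasts.

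Summed B cell markers followed class II in Tg and WT and ran the other way in KO. Summed plasma cell markers followed class II within each genotype, and summed pre-B cell markers did so in WT only. In reading the counts of called markers here and in the other lists, 2.39% of all genes were called lower in Tg against WT and 3.06% in Tg against KO. The 12 B cell markers summed to 107 to 189.7 CPM in Tg, 227 to 354.6 CPM in KO and 133.4 to 621.6 CPM in WT. The most abundant were Cd37, Ebf1 and Cd79b. WT 2 was highest and Tg 3 lowest. KO 2, the KO library highest in class II, was the lowest KO library for this sum. Of the 12, 1 fell in Tg against WT (Ighd) and 4 fell in Tg against KO (Cd79b, Cd22, Fcrla and Ighd). Pre-B cell markers summed to 474.6 to 604.7 CPM in Tg, 958.7 to 1143 CPM in KO and 703.6 to 1175 CPM in WT, with Cd93, Rag1 and Igll1 leading. Of these 7, 3 fell in each Tg contrast (Rag2, Il7r and Cd93). Plasma cell markers summed to 129.5 to 185.9 CPM in Tg, 297.1 to 346 CPM in KO and 152.3 to 628.9 CPM in WT, with Jchain, Xbp1 and Sdc1 leading. Of these 7, 2 fell in Tg against WT (Jchain and Tnfrsf17), and Prdm1 fell with them in Tg against KO.

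Summed macrophage markers and summed markers of cells that carry little class II ordered the Tg and WT libraries differently from class II. In KO the macrophage sum and the T and NK cell sum rose with class II. The 12 macrophage markers summed to 90.8 to 200 CPM in Tg, 132.4 to 226.4 CPM in KO and 90.8 to 251.7 CPM in WT. Csf1r, Vcam1 and Cd68 led the list, and WT 1, with a low class II sum of 260.5 CPM, was highest. Pearson's r of the tested macrophage markers with the mean of the scaled members ran from -0.0622 for Vcam1 to 0.848 for Adgre1. For Csf1r and Cd68 it was 0.197 and 0.399. Adgre1 is named after its values were seen. Of the 11 tested, 4 fell in Tg against WT (Mertk, Mrc1, Spic and Cd5l) and 2 in Tg against KO (Spic and Cd5l). The 8 monocyte markers summed to 435.2 to 1071 CPM in Tg, 876.7 to 1168 CPM in KO and 359.4 to 679.5 CPM in WT, led by Ly6c2, F13a1 and Lyz2 in the mean over the 11 libraries. Ccr2 fell in both Tg contrasts, and Ly6c2 rose in Tg against WT. T and NK cell markers summed to 128 to 265.1 CPM in Tg, 99.8 to 116.3 CPM in KO and 96.0 to 123.1 CPM in WT, led by Nkg7, Lck and Klrb1c. Nkg7 carried this sum, with means of 186.2 CPM in Tg, 71.6 CPM in KO and 72.8 CPM in WT, and the other 9 markers summed to 17.6 to 22.3 CPM in Tg, 35.0 to 43.3 CPM in KO and 30.6 to 53.6 CPM in WT. Fitted levels of 8 of the 10 were lower in Tg in each Tg contrast, with medians of -1.88 against WT and -2.03 against KO. Single markers of this list did not all move like its sum. Their r with the mean of the scaled members ran from -0.598 for Nkg7 to 0.934 for Cd8a, which is named after its values were seen. For Cd3g, Ncr1, Lck and Klrb1c it was 0.845, 0.744, 0.53 and 0.198. Nkg7 rose and Ncr1 and Lck fell in both Tg contrasts, Klrb1c fell in Tg against WT, and Cd3g fell in Tg against KO. The 9 stem cell markers reported summed to 471 to 778.8 CPM in Tg, 482.8 to 555.8 CPM in KO and 396.6 to 706.5 CPM in WT. Their fitted levels were higher in Tg for 8 of 9 against KO (median 0.55) and for 7 of 9 against WT (median 0.19). Of these 9, 1 was called, Procr, a receptor used to mark stem cells, which rose by 1.02 in Tg against KO (SE 0.26, edgeR quasi-likelihood adjusted p = 0.0413). No listed marker was at 0 in all 11 libraries. The part of any of these cells in the class II levels was not tested.

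**Figure D5:**
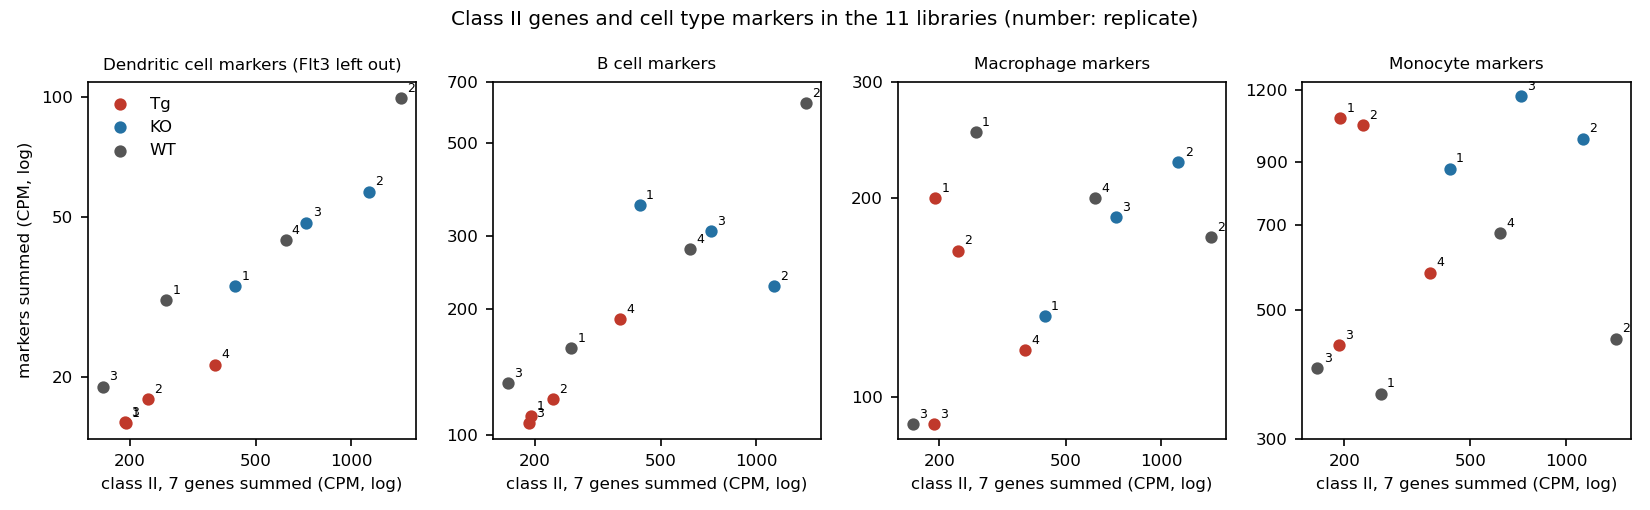
Summed markers of 4 cell types (CPM, log axis) against the summed level of the 7 class II genes (CPM, log axis) in each library, coloured by genotype and numbered by replicate. Dendritic cell markers, drawn with Flt3 left out, climb with class II within each genotype, apart from the near ties Tg 1 and Tg 3. B cell markers do so in Tg and WT and run the other way over the 3 KO libraries (KO 2 at 227 CPM), and macrophage and monocyte markers keep no such order in Tg or WT.

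The genes whose pattern over the 11 libraries was most like that of the members were Rasgrp3 (r = 0.988), Tlr13 (0.979), Jaml (0.975), Pirb (0.975), Pid1 (0.971), Chst1 (0.970), Lrrc25 (0.967), Psap (0.966), Ckb (0.966) and Prlr (0.961). The measure was Pearson's r between a gene's log2 CPM and the mean of the 7 scaled members, given as a description. Rasgrp3, an activator of Ras proteins downstream of the B cell receptor, averaged 1.53 ± 0.619 CPM in Tg (SD, n = 4), 7.44 ± 3.91 CPM in KO (n = 3) and 5.85 ± 5.95 CPM in WT (n = 4). Psap, the precursor of the saposins that help break down lipids in lysosomes, was by far the most abundant of the 10, with 431.4 ± 24.7 CPM in Tg, 645.1 ± 70.9 CPM in KO and 550.2 ± 164.9 CPM in WT. Tlr13 is an endosomal receptor for bacterial ribosomal RNA, and Pirb an inhibitory receptor that binds MHC class I. None of the 10 was called in any contrast, where 0.0233% (KO against WT), 4.92% (Tg against WT) and 5.69% (Tg against KO) of all genes were. In all, 77 tested genes had r of at least 0.9, among them 5 of the members themselves.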

How the data were processed

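Total RNA of LSK cells from individual mice was sequenced as paired 150-base reads, per the labels. What the authors deposited is a table of raw counts per gene symbol, without normalisation. FastQC, Trimmomatic, STAR, HTSeq and mm10 are named in the submitters' processing notes. Versions, annotation, strand setting and filters were not given in the sources used.

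One edgeR 4.0.16 fit took in the counts of all 11 libraries (R 4.3.3; TMM, filterByExpr on the group, no covariate), and its contrasts were tested with the quasi-likelihood test. Calls required an adjusted p (Benjamini-Hochberg, 17183 genes) under 0.05. The biological coefficient of variation was 0.272. CPM values are TMM scaled, except Xist and Y-linked reads, which use library totals. Log2 levels for correlations used a prior count of 2, and correlations 100000 permutations, whose smallest p is 1e-05. Positions and exon lengths came from GENCODE M21. Replicates of a group differed by more than sampling noise.

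The members and the gene lists were chosen with earlier results of these data known. Named genes are all members, called genes of the lists or otherwise examples of those with the lowest p, markers called, and the 10 most alike genes. Of the stem cell markers, 9 are reported. Any gene beyond this rule is marked where its values are given, apart from the regulators of the pathway, which are named as a group. Alternatives were DESeq2 1.42.0, limma-voom 3.58.1, RLE and upper-quartile scaling, no filter or 2 CPM in 3 libraries, a replicate block, a surrogate variable (sva 3.50.0), the 2 groups compared alone, and each library left out. Leaving out 4 mixed-signal libraries, those with Xist at 1 CPM or more beside Y-linked reads at 10 CPM or more, was chosen after seeing the data. Plots were made in matplotlib 3.10.9 (Python 3.11.15).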

Additional observations from a re-analysis of the deposited data

Results flagged for a closer look

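Among 26 groups of 4 libraries, tested for a single library apart from the rest, 2 stood out, and chance gives about 1 in 20. H2-Aa was at 62.5 CPM in Tg 4, against 18.9 to 22.3 CPM in the other 3 Tg libraries, a gap of 0.922 of the group's range where 0.829 is the limit. Without Tg 4 no member was called in Tg against WT. Nfyb was at 59.6 CPM in WT 1, against 52.9 to 53.9 CPM in the other 3 WT libraries, a gap of 0.862 of the range.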

How the results depend on the processing

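No member was called in KO against WT or in Tg against WT under any of the 21 alternatives. In Tg against KO, where 1 member was called, the replicate block and the surrogate variable called 0 of 7, the 2 groups alone and leaving out the mixed-signal libraries (Xist beside Y-linked reads) 4, and leaving out 1 library 0 to 1. H2-DMa had adjusted p = 0.0589 with the replicate block and 0.0902 with the surrogate variable. Over all genes, 4 were called in KO against WT, 99 by DESeq2, 1 by limma-voom, 1 with the replicate block, 1 with the 2 groups alone and 1 to 4 without 1 library. In Tg against WT, 846 were called, 1912 by DESeq2, 221 with the replicate block, 177 with the surrogate variable, 358 with the 2 groups alone, 20 without the mixed-signal libraries and 211 to 1076 without 1 library. In Tg against KO, 978 were called, 1922 by DESeq2, 303 with the replicate block, 364 without the mixed-signal libraries and 287 to 1096 without 1 library. Replicate numbers did not pair the libraries: r of the deviations of same-numbered libraries ran from -0.314 to 0.174, with 2 of 10 pairs over 0.1, and 1 of 11 libraries matched its own number best. Uncalled log2 fold changes turned sign as follows, and the cause was not tested. In KO against WT, Ciita was at -0.00058 with upper-quartile scaling, and H2-Eb1 at 0.75 with limma-voom, 0.84 with the replicate block, 0.84 with the surrogate variable and 3.77 without the mixed-signal libraries. In Tg against WT with the surrogate variable, H2-Aa was at 0.73, H2-Ab1 0.74, H2-Eb1 0.30, Cd74 0.54, Ciita 0.86 and H2-DMb1 0.32. In the same contrast without the mixed-signal libraries these were 1.52, 1.21, 1.16, 1.31, 1.67 and 0.28, and Prdm1 was at 0.056. In Tg against KO Ciita was at 0.076 with the surrogate variable. Leaving out 1 library moved KO against WT from -0.24 to 1.34 for H2-Aa, -0.48 to 1.12 for H2-Eb1, -0.20 to 1.42 for Cd74, -0.33 to 1.08 for Ciita, -0.15 to 0.26 for H2-Ob and -0.18 to 0.42 for Lgmn, and Tg against WT from -0.23 to 0.12 for H2-DMb1. With 3 or 4 mice a group and levels that spanned up to 29.5-fold (H2-Eb1), the number of mice limits the precision of these comparisons more than the depth of the libraries does for genes of this level.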

Other observations

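Of 7 co-stimulation and checkpoint genes, whose products act beside class II on T cells, none was called in any contrast. Over all genes 0.0233% were called in KO against WT, 4.92% in Tg against WT and 5.69% in Tg against KO. Cd86, a ligand of CD28, averaged 3.51 ± 0.554 CPM in Tg (SD, n = 4), 9.01 ± 2.63 CPM in KO (n = 3) and 8.14 ± 4.29 CPM in WT (n = 4). Its log2 fold change was -1.36 in Tg against KO (adjusted p = 0.0605) and -1.21 in Tg against WT (adjusted p = 0.0766), both by edgeR's quasi-likelihood test. Icosl differed by -0.46 in Tg against WT (adjusted p = 0.0708), and Pdcd1lg2 by 0.86 in Tg against KO (adjusted p = 0.0508). Pdcd1lg2 was lowest in KO, averaging 2.91 CPM in Tg, 1.59 CPM in KO and 3.17 CPM in WT. In KO against WT it differed by -0.99 (edgeR quasi-likelihood adjusted p = 0.341). Cd86 followed the members with r = 0.938 over the 11 libraries, a description like that of the other most alike genes.

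The proportion between the beta chain of I-E and the alpha chain of I-A is given here as a description. H2-Eb1 stood at 0.860 to 1.23 of the H2-Aa level per kilobase in Tg, 1.08 to 1.36 in KO and 1.33 to 1.53 in WT. All 4 Tg libraries thus lay below all 4 WT libraries. This ratio was chosen after its values were seen and was not tested.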
